A study of Mus musculus with 5 samples.

Results

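The genes described here are 7 genes of fatty acid and retinoid handling, *Fabp4*, *Rbp7*, *Cd36*, *Gpihbp1*, *Lpl*, *Fabp5* and *Fabp3*, out of 17389 genes in the count matrix of adult mouse kidney cells. They were chosen by name, with their pattern across cell types known and with *Rbp7* in the endothelial cells and *Fabp4* in the loop of Henle already noticed for a difference between genotypes when the sequencing run is taken into account, so those levels and those comparisons are described without a test. All mice were of the FVB/Ant strain. Wild type is represented by 2 libraries, WT female and WT mix. The 3 knockout libraries, KO female, KO male and KO mix, come from littermates in which stop codons were inserted behind the start codon of *Fame* (*Ccdc198*) with CRISPR. Mix stands for pooled cells of both sexes, so wild type has no library of male cells alone. The number of mice behind a library is not stated in the sources used here, so the spread between libraries may be partly technical. Each perfused kidney was dissociated with collagenase P and trypsin, and the 3′ ends of RNA molecules were counted as unique molecular identifiers (UMIs). Levels are given as counts per 1000000 UMIs of the same library and cell type (CPM), and a level is given only for at least 20 cells.

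Fatty acids reach tissues from the blood either bound to albumin or as triglycerides in lipoproteins. Lipoprotein lipase, encoded by *Lpl*, releases fatty acids from lipoproteins at the capillary wall, where GPIHBP1 on the endothelial cell carries and anchors it. CD36 takes fatty acids up at the cell surface, and small carrier proteins, the fatty acid binding proteins (*Fabp4*, *Fabp5*, *Fabp3*) and the retinol binding protein encoded by *Rbp7*, hold the hydrophobic ligand inside the cell. *Fabp4* and *Rbp7* are known from adipocytes and capillary endothelium, *Fabp3* from muscle and other tissues that burn fatty acids.

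The libraries hold 14197 cells, 1794 to 3567 each, with 9791091 to 15950717 UMIs per library and 1001 UMIs in the shallowest cell. The cluster that the annotation names GL endo, for glomerular endothelium, has 940 cells, namely 146, 276, 128, 94 and 296 in WT female, WT mix, KO female, KO male and KO mix. All 10 endothelial markers were present there in every library, at a summed level of 4334 to 8183 CPM. The glomerular part of the name was borne out by *Ehd3*, a glomerular endothelial gene, in only some of these cells. Of them, 220 had a UMI of *Ehd3* without one of *Plvap*, a gene of fenestrated peritubular capillaries, 338 had *Plvap* without *Ehd3*, 177 had both and 205 had neither. A cell without a UMI of a marker may still express it. Summed levels were 464 to 2352 CPM for 6 glomerular endothelial markers, 681 to 2238 for 4 of peritubular and fenestrated capillaries and 404 to 997 for 6 arterial ones. The cluster is therefore called GL endo only as its label. Of the 5 adipocyte markers, only *Cidec* and *Retn* were among the genes of the matrix, with 1 UMI each in GL endo. A doublet score above 0.2 was given to 14.5% to 58.5% of GL endo cells per library. The WT female GL endo cells stand apart, since 2 of them carried 173 UMIs of the lymphatic gene *Ccl21a*, against at most 1 UMI in any other library, and 3 carried 356 UMIs of the renin gene *Ren1*, against 6 to 20 elsewhere. Over the whole matrix, 50 cells, 2 of them GL endo, carried a barcode also seen in another library. The annotation gives sequencing run 2 to the 3 single-sex libraries and run 3 to both mixed ones, so run and pooling of the sexes cannot be told apart. *Fame* itself was at 196 and 71.5 CPM of all UMIs in WT female and WT mix and at 148, 127 and 83.1 CPM in KO female, KO male and KO mix, and a 3′ count does not check a stop codon insertion near the start of the coding sequence.

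*Fabp4*, *Fabp5*, *Fabp3* and *Rbp7* belong to one family of intracellular lipid binding proteins and have 4 exons each, which raises the question of whether their counts can be told apart. Their coding sequences (396, 405, 399 and 402 bases) shared 59.3% to 67.2% of aligned bases between pairs, and no stretch of 25 bases was common to any pair of their transcripts. The start of the coding sequence is shown for these 4 genes, as 75 bases aligned without gaps from the first codon, or from coding position 7 in *Fabp5*, of the GENCODE vM21 transcripts. Capitals mark the 29 bases that all 4 genes share.
Fabp4: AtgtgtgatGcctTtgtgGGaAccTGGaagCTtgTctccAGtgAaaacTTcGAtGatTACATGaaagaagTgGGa
Fabp5: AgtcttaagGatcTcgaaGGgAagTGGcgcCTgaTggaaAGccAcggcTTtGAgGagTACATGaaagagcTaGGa
Fabp3: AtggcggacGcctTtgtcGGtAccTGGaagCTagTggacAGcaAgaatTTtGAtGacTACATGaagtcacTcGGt
Rbp7: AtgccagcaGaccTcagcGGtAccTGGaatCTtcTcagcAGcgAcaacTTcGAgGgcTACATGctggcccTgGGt
Of these 75 bases, *Fabp3* shared 53, *Rbp7* 47 and *Fabp5* 40 with *Fabp4*.

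In GRCm38 coordinates, *Fabp4* lies on the minus strand at chr3:10204088-10208576, and *Fabp5* lies 187 kb from it on the plus strand at chr3:10012548-10016607. *Fabp3* lies at chr4:130308595-130315463 on the plus strand and *Rbp7* at chr4:149449687-149454978 on the minus strand. *Cd36* lies at chr5:17781690-17888801 on the minus strand, *Lpl* at chr8:68880491-68907448 and *Gpihbp1* at chr15:75596628-75599481, both on the plus strand. The gene models of *Gm10570* and *Zcchc17* overlap *Fabp3* on the other strand, so the *Fabp3* counts are uncertain to the extent that strand was not used in counting. For the promoters, RefSeq sequence of GRCm38.p6 was at hand for 3 of the 7 genes, *Rbp7*, *Cd36* and *Fabp3*. The 250 bases before the RefSeq start site of *Rbp7* and *Cd36* are shown because both genes are detected in capillary cells while *Cd36* is also high in proximal tubule. *Cd36* has several starts, and the one used here lies inside the gene model given above, downstream of its outermost 5′ end, whose promoter was not searched. Capitals mark AGGAAG, the core bound by ETS factors, and AGGTCA, the recognition hexamer of nuclear receptors such as PPARG, on either strand.
Rbp7, chr4:149454969-149455218, minus strand: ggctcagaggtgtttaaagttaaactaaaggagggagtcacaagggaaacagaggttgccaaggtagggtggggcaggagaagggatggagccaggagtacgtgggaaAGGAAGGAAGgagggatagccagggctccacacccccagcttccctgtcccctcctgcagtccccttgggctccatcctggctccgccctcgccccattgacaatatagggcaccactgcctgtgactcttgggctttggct
Cd36, chr5:17835897-17836146, minus strand: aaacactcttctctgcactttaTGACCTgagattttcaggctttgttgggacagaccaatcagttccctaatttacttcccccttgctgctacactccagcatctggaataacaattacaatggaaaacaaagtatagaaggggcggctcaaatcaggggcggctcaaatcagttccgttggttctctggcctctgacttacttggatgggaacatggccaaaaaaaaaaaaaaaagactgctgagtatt
The *Rbp7* stretch holds 2 overlapping AGGAAG matches and no AGGTCA, and the *Cd36* stretch holds 1 AGGTCA match and no AGGAAG. Among 32851 promoter stretches of the same length, 29.5% held AGGAAG and 14.0% held AGGTCA, so neither match is rare.

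*Fabp4* was read almost wholly in endothelial cells. GL endo cells held 90.0% of its 20180 UMIs. In GL endo its wild type levels were 15132 CPM for WT female and 4435 for WT mix, and the knockout levels were 6277 for KO female, 7617 for KO male and 4852 for KO mix. WT female is the high library, and the other 4 overlap between genotypes. The next types with at least 4 libraries were vascular smooth muscle (VSMC), with a median of 201 CPM and a range of 23.5 to 1517, and red blood cells (RBC), with a median of 130 CPM. The level in GL endo exceeded that in every other type in each library. In WT female, 88 of the 144 *Fabp4* UMIs of VSMC came from 1 cell, so the order of the types below GL endo does not hold across libraries. After each cell was thinned to 1000 UMIs, *Fabp4* was seen in 84.2%, 69.9%, 81.2%, 90.4% and 70.9% of GL endo cells in the same order of libraries, against 10.3% of WT female RBC, 6.6% of those from KO female and 18.8% of those from KO male. In KO mix 0 of 41 RBC had one, which allows a share of up to 7.32%. Red blood cells should lack the gene and give a rough level of free RNA, and WT mix, with only 11 of them, is left out of these comparisons. In the other 4 libraries the 5 red blood cell markers made up 314128 to 531752 CPM of RBC. Free RNA therefore need not make up the same part of RBC as of GL endo. Median depth was 1532 to 1889.5 UMIs in GL endo and 1356 to 2119 in RBC of the other 4 libraries.

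*Rbp7* had the same main cell type at a far lower level. GL endo held 86.9% of its 611 UMIs, with 546 CPM for WT female, 162 for WT mix and, in the knockout, 220 for KO female, 130 for KO male and 46.6 for KO mix. RBC had 0 to 19.8 CPM, and their highest value came from 10 UMIs in 1 cell. Outside GL endo and RBC the highest level was 10.5 CPM, from 1 UMI in the VSMC of WT female. A *Rbp7* UMI was seen in only 17 of 146, 22 of 276, 10 of 128, 10 of 94 and 13 of 296 GL endo cells. After thinning these shares were 6.8%, 5.8%, 4.7%, 8.5% and 3.4%, and the shares of the genotypes overlapped. In RBC they were 0.43% in WT female and 0.62% in KO male, and 0 of 427 cells in KO female, which allows up to 0.703%. In KO mix, 0 of 41 RBC allow up to 7.32%, above the 3.4% of GL endo, so for that library the share cannot be told from free RNA at this depth.

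*Fabp5*, a fatty acid carrier known from epidermis and capillaries, was evenly expressed in GL endo. It stood at 441, 444, 366, 335 and 460 CPM in WT female, WT mix, KO female, KO male and KO mix. GL endo was the highest type, and its range did not overlap that of the fibroblasts next in order (183 to 226 CPM in 2 libraries). Straight proximal tubule (PT s) had 43.0 to 122 CPM but, having far more UMIs in all, held 45.6% of the *Fabp5* UMIs against 24.6% for GL endo. After thinning, 23.6% to 32.9% of GL endo cells had a UMI, against 0% to 4.4% of RBC.

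*Gpihbp1* was the most nearly endothelial of the 7 genes, with 93.2% of its UMIs in GL endo. Its levels there were 299, 744, 277, 142 and 464 CPM in the same order of libraries. Both mixed libraries of run 3 were above the 3 libraries of run 2, whichever the genotype. VSMC had 31.6 CPM in WT female, from 3 UMIs, and no UMI in the other 4 libraries, and no further type of at least 4 libraries passed 8.2 CPM. After thinning, 10.6% to 38.0% of GL endo cells had a UMI, against 0% to 0.85% of RBC, where the 0 of 41 in KO mix allows up to 7.32%.

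*Lpl*, the lipase that GPIHBP1 binds, was not high in the endothelium. In PT f, the proximal tubule cluster named for female cells, it was at 1668, 704, 1450 and 1120 CPM in WT female, WT mix, KO female and KO mix. In the loop of Henle (LOH) it was at 866, 768, 869, 1158 and 759 CPM in WT female, WT mix, KO female, KO male and KO mix, and in the distal convoluted tubule (DCT) at 393 to 897. PT f was above LOH in 3 of 4 libraries, DCT above PT s in 5 of 5. GL endo had 75.7 to 126 CPM, while RBC had 57.5 to 207. The share of cells with a *Lpl* UMI after thinning was 7.0% to 11.7% in GL endo. In RBC it was 7.3% to 16.9%, above GL endo of the same library in KO female and KO male, and 7.7% against 8.9% in WT female and 7.3% against 8.1% in KO mix. At this depth the endothelial value cannot be told from that of free RNA. The lipase and its endothelial anchor were read mainly in different cell types, with a Pearson r of 0.02 between their log2 levels over the 19 types, which share libraries.

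*Fabp3*, which carries fatty acids in cells with high oxidation, was a tubular transcript. LOH had 991, 573, 1162, 1192 and 570 CPM and DCT had 1045, 346, 819, 1220 and 415 CPM in WT female, WT mix, KO female, KO male and KO mix. The order of these 2 types held in only 3 of 5 libraries, and both were above the collecting duct intercalated and transitional cells in 5 of 5. The 3 libraries of run 2 were above the 2 of run 3 in both types. In GL endo *Fabp3* had 47.1 to 134 CPM against 105 to 266 in RBC, and the thinned share of cells was lower in GL endo than in RBC in 4 of 4 libraries with enough RBC. At this depth these GL endo counts cannot be told from free RNA.

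*Cd36* was low in the straight proximal tubule of the female libraries. PT s held 71.3% of its UMIs, but the level there was 5.9 CPM in WT female and 2.4 in KO female, against 355 in WT mix, 260 in KO mix and 782 in KO male. GL endo was more even, with 343, 215, 134, 216 and 170 CPM in WT female, WT mix, KO female, KO male and KO mix. GL endo was above PT s in both female libraries and below it in the other 3. In PT f, also a proximal tubule cluster, the level was 133 to 241 CPM in WT female, WT mix, KO female and KO mix, so it was not low in the female libraries there. The RBC of KO male had 230 CPM of *Cd36*, as much as its GL endo, and a thinned share of 25% of cells against 21.3%. The endothelial value of that library thus cannot be told from that of free RNA. In both female libraries RBC had at most 4.0 CPM, and the GL endo values stand clear of it.

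**Figure D1:**
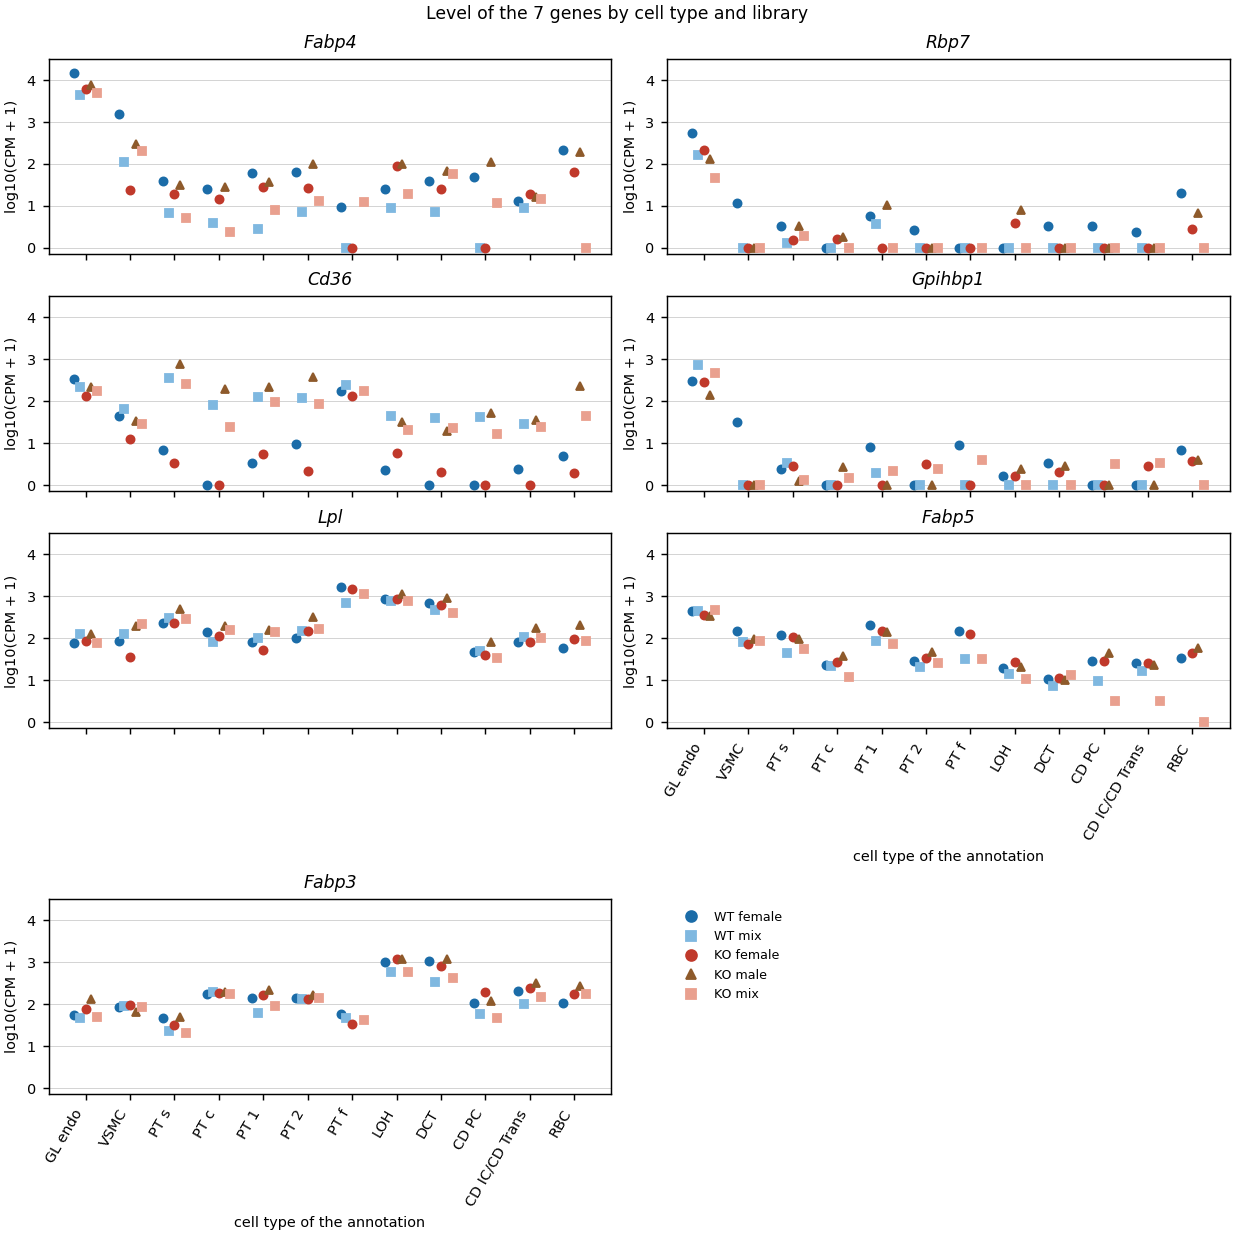
Level of the 7 genes as log10(CPM + 1), for cell types with at least 4 libraries of 20 cells. Each point is 1 library, with wild type in blue and knockout in red to brown. *Fabp4*, *Rbp7* and *Gpihbp1* stand out in GL endo, where *Fabp4* runs from 4435 to 15132 CPM, while *Lpl* and *Fabp3* are high in LOH and DCT, and *Cd36* in PT s is at 2.4 to 5.9 CPM in both female libraries.

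To follow *Cd36* by sex within the mixed libraries, cells with a UMI of *Xist* and none of 4 Y-linked genes were classed as female, and cells with a Y-linked UMI and no *Xist* as male, a split chosen after the levels had been seen. No cell of the female libraries was classed male and none of the male library female. In WT mix 378 cells were classed female and 800 male, while 39 had both kinds of UMI and 2137 neither. In KO mix these numbers were 1445, 425, 75 and 1622. In PT s the female class had 38.0 CPM of *Cd36* in WT mix (95% Poisson interval 20.8 to 63.8, counting error only) and 33.2 in KO mix (24.2 to 44.4). It had 6.4 CPM in WT female and 2.1 in KO female, and the purity of the classes in the mixed libraries was not tested. The male class had 418 CPM in WT mix (380 to 459), 423 in KO mix (379 to 471) and 795 in KO male (766 to 824). The ranges of the 4 female and 3 male classes did not overlap, and inside each mixed library the male class was over 10 times higher. The male classes of WT mix and KO mix had near equal levels, and no wild type library of male cells alone stands beside KO male. In convoluted proximal tubule (PT c) the male classes had 50.9 to 225 CPM and the female classes 0 to 21.0, and in PT 2 the male classes had 131 to 406 and the female 0 to 99.2. These ranges did not overlap either, though the 99.2 CPM of WT mix rest on 3 UMIs, with an interval of 20.5 to 290. Outside the proximal tubule the classes were apart in DCT and RBC, but not in LOH or GL endo. In DCT the male classes, of 6 to 47 cells, had 17.3 to 168 CPM and the female classes 0 to 13.9. In RBC the only male class had 212 CPM and the female classes 0. The part of free RNA in the PT c, PT 2 and DCT values was not tested. In GL endo the classes overlapped, with 59.1 to 437 CPM in female and 176 to 269 in male cells. They also overlapped in PT f, with 140 to 203 CPM in female and 123 to 601 in male cells. In LOH the female classes had 0.74 to 32.9 CPM and the male 8.9 to 64.0, and in PT 1 the female had 0 to 106 and the male 59.2 to 188, so both overlapped. Whether the sex difference itself differs between these types was not tested.

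*Cd36* was not the only member whose female and male classes were apart in a proximal tubule cluster. For *Lpl* in PT s the male classes (291, 311 and 501 CPM in WT mix, KO mix and KO male) were above the female ones (230 to 247 CPM in 4 libraries). In PT f the female classes had 1122 to 1523 CPM and the male classes 204 to 386, but the latter rest on only 4 to 7 cells per library. *Fabp3* in PT c had 159 to 182 CPM in the female and 200 to 231 in the male classes. *Fabp5* in PT f had 34.5 to 125 CPM in the female and 0 to 30.8 in the male classes, where no library had more than 2 UMIs. All 7 members were looked at in several cell types. How many of all genes have classes apart there was not counted, so these values are descriptions only.

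**Figure D2:**
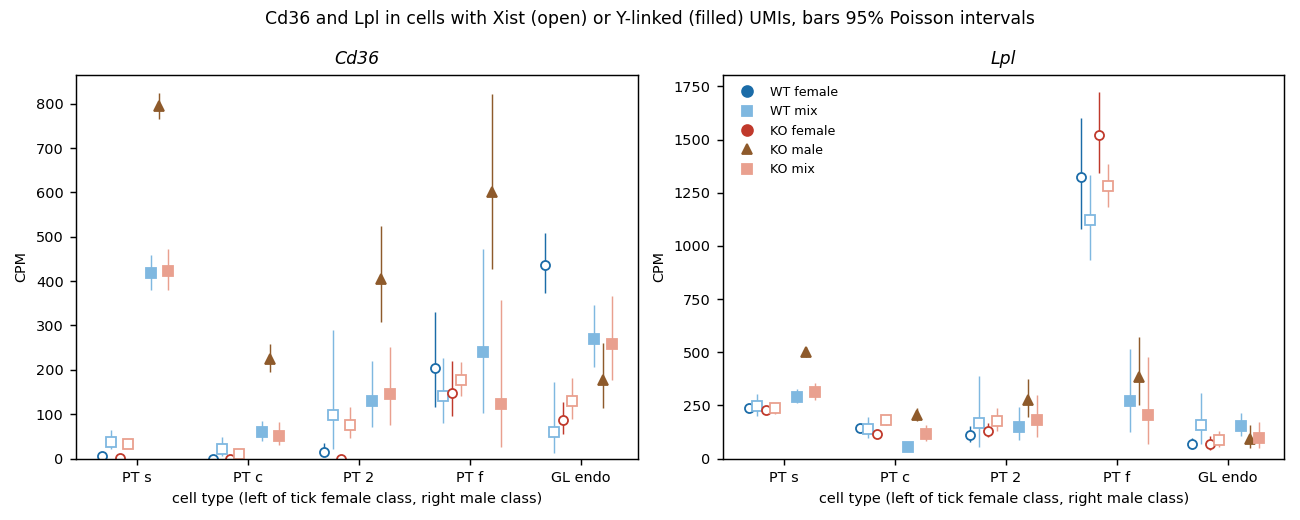
CPM of *Cd36* and *Lpl* in cells classed female (open, left of each tick) or male (filled, right), by cell type and library, with 95% Poisson intervals. *Cd36* in PT s lies at 2.1 to 38.0 CPM in the female classes and at 418 to 795 in the male ones. *Lpl* in PT f lies at 1122 to 1523 CPM in the female classes and at 204 to 386 in the few male cells there.

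Within GL endo, *Fabp4* and *Rbp7* differed between the kinds of capillary cell in every library, and the other members did so less regularly. *Fabp4* was higher in cells with *Plvap* and no *Ehd3* than in cells with *Ehd3* and no *Plvap* in 5 of 5 libraries, by 2.92 to 11.4 times with a median of 5.02. Its levels in the *Ehd3* class were 4870, 455, 2273, 2911 and 1049 CPM in WT female, WT mix, KO female, KO male and KO mix, and in the *Plvap* class 14234, 5206, 7336, 14610 and 6465 CPM. *Rbp7* showed the same order in 5 of 5 libraries, with 0 CPM in the *Ehd3* class of 3 libraries and at most 27.1 CPM in the other two, against 33.9 to 164 CPM in the *Plvap* class. Cells with neither marker had the highest *Rbp7* level in each library, at 1668, 548, 853, 185 and 183 CPM, at a median depth of 1240 to 2416 UMIs. The cell with the most *Rbp7* in each library is in this class. It held 201 of the 243, 39 of the 58, 67 of the 68, 12 of the 19 and 8 of the 13 *Rbp7* UMIs of the class. This rank therefore leans on 1 cell per library. In KO female and KO male the class does not rank first without that cell, as the *Plvap* class held 22 and 13 *Rbp7* UMIs there. *Cd36*, *Gpihbp1* and *Fabp5* were higher in the *Plvap* than in the *Ehd3* class in 4 of 5 libraries each, and *Fabp3* in 3 of 5. *Lpl* was lower there in 4 of 5. Among cells with a doublet score of at most 0.2, the counts were again 5 of 5 for *Fabp4* and *Rbp7* and 4 of 5 for *Fabp5*, but 3 of 5 for *Cd36* and *Gpihbp1* and 2 of 5 for *Fabp3*, and *Lpl* was lower in 5 of 5. The classes are cut from sparse counts, and a cell without a UMI of either marker may still express one.

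**Figure D3:**
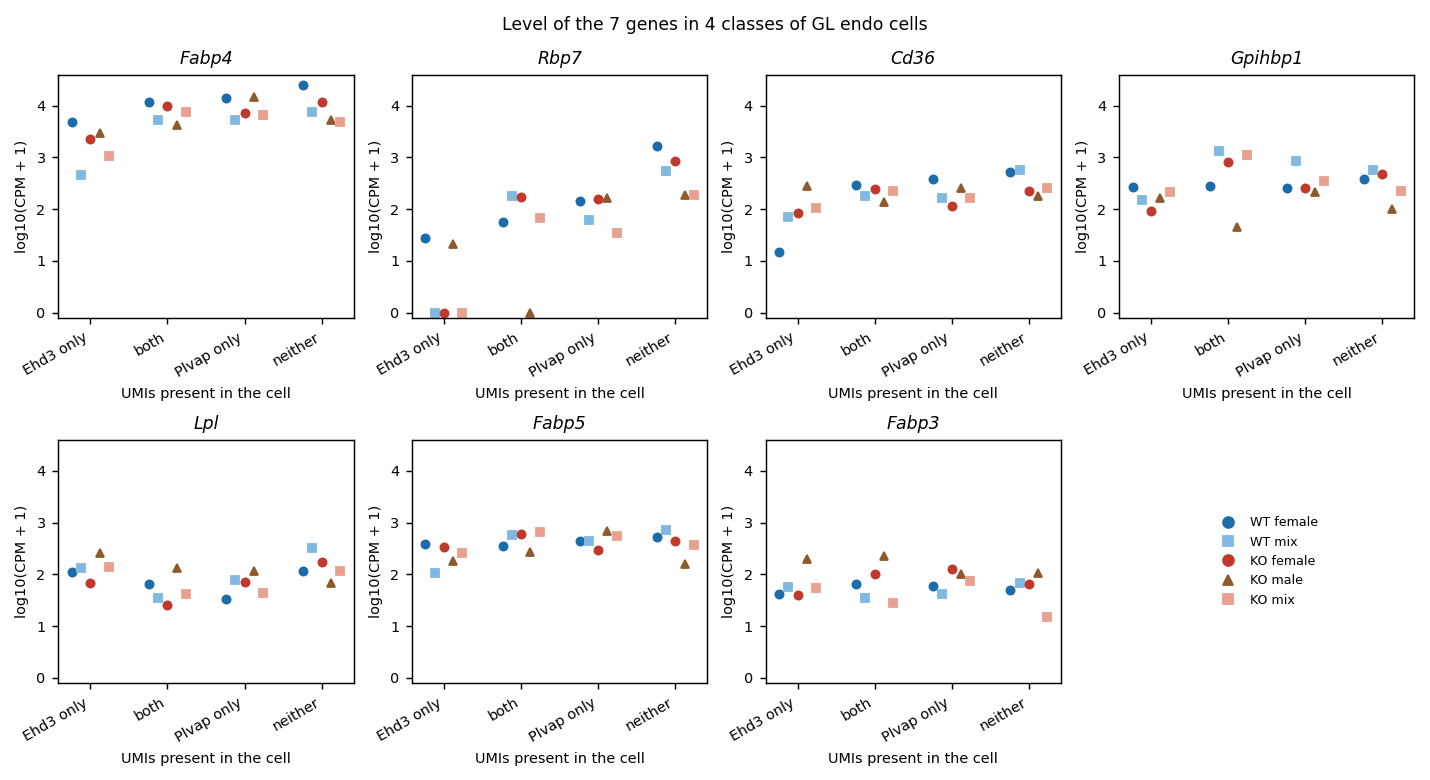
Level of the 7 genes, as log10(CPM + 1), in GL endo cells with a UMI of *Ehd3* only, of both *Ehd3* and *Plvap*, of *Plvap* only or of neither, 1 point per library. *Fabp4* is lowest in the *Ehd3* class of every library. *Rbp7* is highest in the class with neither marker, at 183 to 1668 CPM, where 1 cell per library holds most of the UMIs. Without that cell this rank fails in KO female and KO male.

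Some pairs of members went together from cell to cell and others did not. Among GL endo cells within a library, log levels of *Fabp4* correlated with those of *Fabp5* by 0.40 to 0.45, with *Gpihbp1* by 0.31 to 0.51 and with *Rbp7* by 0.23 to 0.34, and *Rbp7* correlated with *Cd36* by 0.10 to 0.46. *Cd36* correlated with *Fabp4* by 0.0057 to 0.34 and with *Gpihbp1* by 0.000835 to 0.18. *Lpl* and *Fabp3* correlated with *Fabp4* by -0.16 to 0.00. Cells of a library share their depth and free RNA, so these values are given as descriptions only.

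Most *Rbp7* UMIs came from few cells. In WT female, 1 GL endo cell of 11843 UMIs held 201 of the 274 *Rbp7* UMIs (73.4%) and 2478 of the 7591 *Fabp4* UMIs (32.6%). That cell also had 47 UMIs of *Cd36*, 58 of *Fabp5*, 33 of *Gpihbp1* and 59 of the 10 endothelial markers, with none of *Ehd3*, *Plvap* or the 5 loop of Henle markers and a doublet score of 0.095. In WT mix the top cell held 39 of 96 *Rbp7* UMIs, with 301 of *Fabp4*, 30 of *Cd36*, 47 of *Fabp5* and 29 of *Gpihbp1*. In KO female it held 67 of 97, with 487 of *Fabp4* and 14 of *Cd36*. The top cells of KO male and KO mix held 12 of 33 and 8 of 31. These last cells had only 1297 and 1362 UMIs, with 1 and 0 UMIs of the 10 endothelial markers. The top cells of WT mix and KO female had 48 and 19 such UMIs. None of these 5 cells had an *Ehd3* or a *Plvap* UMI. The 3 top cells of a library together held 54.8% to 87.6% of its *Rbp7* UMIs, whereas the 3 top *Fabp4* cells held 9.11% to 54.9% of its UMIs, the most in WT female.

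**Figure D4:**
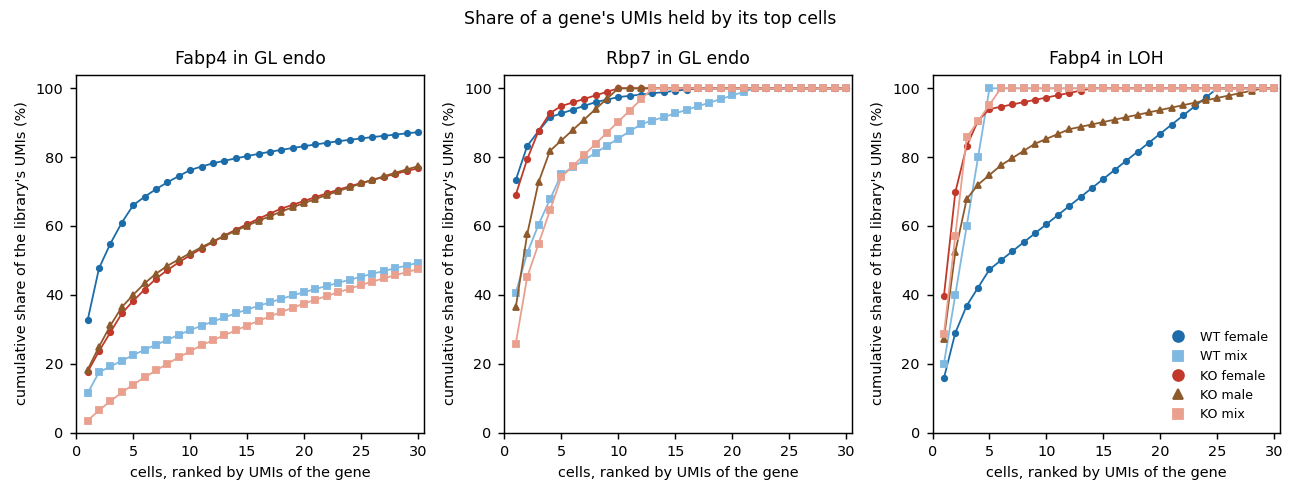
Cumulative share of a library's UMIs (y, in percent) held by its cells ranked by UMIs of the gene (x), for *Fabp4* and *Rbp7* in GL endo and *Fabp4* in LOH. For *Rbp7* the first cell alone holds 25.8% to 73.4%, while *Fabp4* in GL endo is spread over more cells in the mixed libraries than in WT female.

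The comparison of knockout with wild type asks whether loss of *Fame* changes these genes. With counts summed per library and cell type and tested by edgeR's quasi-likelihood test, none of the 7043 genes tested in GL endo passed a Benjamini-Hochberg adjusted p of 0.05 (0%), and 21 had an unadjusted p below 0.05. DESeq2 and limma-voom called 0 genes as well, with 13 and 28 at an unadjusted p below 0.05. All 7 members passed the filter on low counts. Log2 fold changes, knockout minus wild type, were -0.58 for *Fabp4* (standard error 0.64), -1.34 for *Rbp7* (0.76), -0.60 for *Cd36* (0.45), -0.73 for *Gpihbp1* (0.53), 0.07 for *Lpl* (0.43), -0.11 for *Fabp5* (0.38) and 0.88 for *Fabp3* (0.55). The median over the members was -0.58 and over all genes tested 0.00. As *Rbp7* was noticed for a difference in these cells, this is no test of the 7 genes as a set. Without the cell with the most *Rbp7* UMIs in each library, the values ran from -0.91 for *Rbp7* to 0.86 for *Fabp3*, with *Fabp4* at -0.23 and *Cd36* at -0.31. Mean levels of *Fabp4* were 9783 ± 7564 CPM in wild type (SD, n = 2) and 6249 ± 1383 in knockout (SD, n = 3). For *Rbp7* they were 354 ± 272 and 132 ± 86.9 CPM, and KO female, at 220, lay above WT mix, at 162. Smooth muscle and mural markers in GL endo, 5 of 5 detected in every library, summed to 690 CPM in WT female, 60.6 in WT mix, 111 for KO female, 488 for KO male and 54.1 for KO mix, and the red blood cell markers to 1515 to 67786 CPM, higher in the 3 libraries of run 2. The part of these markers in the member levels was not tested.

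With the run as a block, which compares WT female with KO female and KO male, and WT mix with KO mix, 1 of the 7043 genes was called (0.0142%). That gene is *Rbp7*, which was chosen through this very call, so the call is no result here, and the levels are given as a description. Its log2 difference in that fit was -1.62 (standard error 0.22). Within run 2 its level was 546 CPM in wild type and on average 175 in knockout, and within run 3 it was 162 and 46.6. When the cell with the most *Rbp7* UMIs was left out of each library, an alternative added after seeing the data, the levels became 149 and 97.2 CPM in wild type and 68.7, 83.1 and 34.6 in knockout. The log2 fold change was then -0.91 (0.52), or -1.13 (0.27) with the run as a block, and edgeR called 0 of 6922 genes either way, with 21 and 212 at an unadjusted p below 0.05. By these levels both wild type libraries stood above all 3 knockout libraries, with 97.2 against 83.1 CPM at the closest. With all cells, KO female at 220 CPM lay above WT mix at 162. Gene and left-out cells were both picked by *Rbp7* counts, and how many of all genes set the libraries apart was not counted. The order, the log2 differences and their standard errors, with or without these cells, are therefore descriptions only. The thinned shares of cells with *Rbp7* gave another order, with KO male highest at 8.5%.

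For *Fabp4*, the same cells left out moved the log2 fold change from -0.58 to -0.23 (0.60). Within run 2, *Fabp4* was at 15132 CPM in wild type and on average 6947 in knockout. Within run 3 it was at 4435 and 4852, so the direction was not the same in both runs. The median GL endo cell had 44.3, 21.4, 38.6, 48.7 and 23.1 *Fabp4* UMIs per 10000 in WT female, WT mix, KO female, KO male and KO mix. By this measure the 3 libraries of run 2 were above the 2 of run 3, and the genotypes overlapped. Leaving out WT female turned the log2 fold change of *Fabp4* to 0.76 and brought that of *Rbp7* to -0.018 and that of *Cd36* to -0.080. *Fabp5* stood at -0.11 with all cells and at 0.18 without the top *Rbp7* cells.

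**Figure D5:**
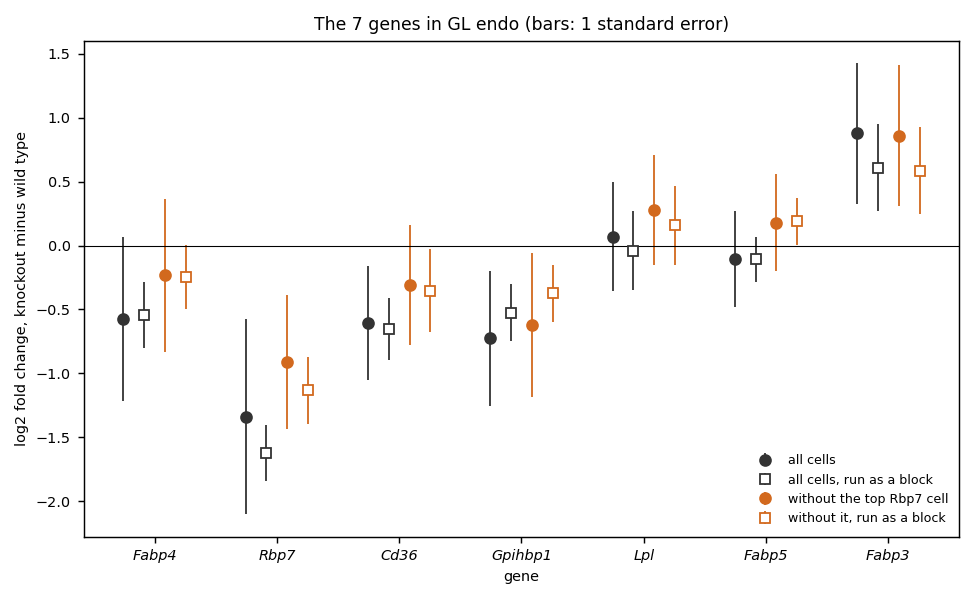
Log2 fold change of the 7 genes in GL endo, knockout minus wild type, with bars of 1 standard error, from the edgeR fits with all cells (black) and without the cell with the most *Rbp7* UMIs in each library (orange), each without (filled) and with (open) the run as a block. *Rbp7* moves from -1.34 to -0.91 and, with the block, from -1.62 to -1.13.

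In 9 further cell types both genotypes had at least 2 libraries, and these comparisons were not used to choose the genes. Members passed the count filter in 39 pairs of gene and cell type, from 2 members in VSMC to 6 in PT s. By edgeR 0 of the 39 were called, with a lowest adjusted p of 0.9996 and 0 with an unadjusted p below 0.05. Over all genes in these types 0 of 52559 pairs were called (0%), and 204 had an unadjusted p below 0.05. DESeq2 also called 0 of the 39 pairs, with 1 at an unadjusted p below 0.05, against 46 of the 52559 pairs over all genes (0.0875%). With the run as a block 0 of 39 were called, with 1 at an unadjusted p below 0.05, against 1037 of the 52559 pairs over all genes (1.97%). The share of all genes called with the block was 0.418% in PT f, 0.0605% in VSMC and 0% in each of the other 7. The log2 fold changes ran from -2.14 for *Fabp4* in VSMC, where 1 cell of WT female held most of the UMIs, to 1.25 for *Cd36* in PT 2, where KO male has the high value. For *Fabp3* in PT c, with 177 to 199 CPM in all 5 libraries, the log2 fold change was -0.02 (standard error 0.23), and for *Lpl* in DCT it was 0.08 (0.37).

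*Fabp4* in LOH was one of the values that led to the choice of genes, so its levels and fitted differences are given as descriptions, with no test. Its level was 23.9 CPM in WT female, 8.1 in WT mix, 90.3 for KO female, 101 for KO male and 18.3 for KO mix. KO mix was below WT female, so the genotypes overlapped, while within each run the knockout libraries were higher. The log2 fold change was 1.99 (standard error 0.71), and 1.91 (0.24) with the run as a block, where 2 of 8952 genes were called (0.0223%) against 0 without it (0%). Few cells held these UMIs. The 3 cells with the most *Fabp4* held 124 of 149 UMIs in KO female, 97 of 143 in KO male and 18 of 21 in KO mix, against 14 of 38 in WT female and 3 of 5 in WT mix. The top cell of KO female had 1146 UMIs of the 5 loop of Henle markers, 59 of *Fabp4* and 20 of the 10 endothelial markers. Without the 3 top cells of each library the levels were 15.7, 3.3, 15.8, 33.4 and 2.6 CPM, and the log2 fold change was 0.68 (0.86), or 0.58 (0.41) with the block. The cells left out were picked by their *Fabp4* counts, so these values are descriptions too. The summed level of the 10 endothelial markers in LOH was 90.7, 109, 109, 110 and 63.6 CPM, with 8 to 10 of 10 detected,, lowest in KO mix. The 5 red blood cell markers summed to 3651, 4.9, 10159, 5163 and 18.3 CPM in LOH, with 3 to 5 of 5 detected. *Fabp4* itself was at 212 CPM in the RBC of WT female, at 65.2 in those of KO female and at 195 in those of KO male. The part of free RNA in the LOH values was not tested.

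Other genes of these pathways were read in GL endo from 5 lists, and none of their members was called by edgeR, with or without the run as a block. In fatty acid uptake and activation, 10 of 20 genes were tested, 4 with a log2 fold change above 0 and 6 below, and the median was -0.03. Its genes with the highest level were *Nrp1*, a VEGF co-receptor, at 303 to 1226 CPM, *Slc27a2*, a fatty acid transporter of proximal tubule, at 201 to 269, and *Cav1*, of caveolae, at 70.4 to 215. For *Slc27a2*, GL endo ranked only 11th among the cell types, and PT f was highest at 2539 CPM. In lipoprotein lipase control and lipoprotein receptors, 9 of 18 were tested, with 8 below 0 and a median of -0.39. *Apoe*, *Lipa* and *Pltp* led, with a mean of 251, 93.6 and 76.8 CPM, and *Apoe* was highest in myeloid cells at 4348 CPM. Of 12 genes of PPAR and partners, 8 were tested, with 5 below 0 and a median of -0.22, and *Cebpd*, *Nr1h2* and *Ppargc1a* led with means of 83.1, 36.7 and 24.1 CPM. For *Ppargc1a*, GL endo ranked only 15th, and LOH was highest at 329 CPM. The part of free RNA in the *Slc27a2* and *Ppargc1a* values of GL endo was not tested. Of 18 genes of retinoid handling, 6 were tested, with 5 below 0 and a median of -0.37. *Cyp26b1*, which breaks down retinoic acid, was at 63.0 to 347 CPM and was higher in GL endo than in any other cell type of the pooled libraries. *Dhrs3*, which reduces retinal to retinol, had a mean of 114 CPM. Of 15 genes of lipid droplets and lipolysis, 9 were tested, with 5 below 0 and a median of -0.14, and *Mgll*, *Plin2* and *Pnpla2* led with means of 229, 101 and 52.1 CPM.

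Across the 19 cell types, with all libraries pooled, the genes whose log2(CPM + 1) was most like that of each member among 10611 genes with at least 200 UMIs were as follows. *Fabp4* was closest to *Gpihbp1* (Pearson r = 0.89), *Ly6c1* (0.88) and *Cdh5* (0.88), and *Rbp7* to *Erg* (0.92), *Esm1* (0.84) and *F8* (0.79). *Gpihbp1* was closest to *Rasgrp3* (0.94), *Cd300lg* (0.91) and *Btnl9* (0.90). All of these genes had their highest level in GL endo. *Cd36* was closest to *Notum* (0.82), *Slc7a13* (0.82) and *Tmem252* (0.81), which were highest in PT f or PT s. *Lpl* was closest to *Eif4ebp3* (0.74), *Uroc1* (0.71) and *Coa5* (0.69). *Fabp3* was closest to *Wfdc15b* (0.85), *Gm17546* (0.85) and *Lrrc66* (0.84), all highest in LOH, and *Fabp5* to *Gja1* (0.77), *Ttc39c* (0.76) and *Stmn2* (0.76). Among the members themselves, *Fabp4* and *Gpihbp1* (0.89), *Fabp4* and *Rbp7* (0.68) and *Gpihbp1* and *Fabp5* (0.67) were the most alike, and *Cd36* and *Fabp3* the least (-0.55). The points of these correlations share libraries and cell types, and they are given with no test.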

How the data were processed

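Single cells of adult kidney from 5 libraries were analysed. The authors deposited raw UMI counts per gene and cell, made with Cell Ranger 4.0.0 on mm10, and an annotation of each cell made with Seurat 3.2.2.9001, which gives its library, run and cluster, the percentage of mitochondrial UMIs (unit percent) and the Scrublet doublet score, a fraction from 0 to 1. They had removed cells with few UMIs or high mitochondrial content. The UMAP coordinates and 2 columns of the annotation were not used here. Libraries were grouped by the genotype in the labels.

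Here counts were summed per library and cluster (at least 20 cells) and compared by edgeR 4.0.16 (filterByExpr, TMM, robust quasi-likelihood, two-sided, Benjamini-Hochberg at 0.05 over all genes of the type), after a check on simulated counts. DESeq2 1.42.0, limma-voom (limma 3.58.1), no filter, at least 20 counts in every library, raw totals, the run as a block, a limit of 25% on mitochondrial UMIs, a limit of 0.2 on the doublet score, and each library left out were the alternatives. CPM refer to raw UMI totals. No doublets were removed. Thinning to 1000 UMIs used a fixed seed. Intervals cover counting error only. Python 3.11.15 and R 4.3.3 were used.

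The genes, the gene lists and the marker lists were chosen with earlier results of these data known. The contrast in GL endo had been planned as a test of members it did not choose, but *Rbp7* had been noticed in it, so no p is given. The named genes are the 7 members, for each the 3 genes closest to it over cell types, and the 3 genes of each list with the highest level in GL endo, of which 1 is not reported here. *Ccl21a* and *Ren1* were named after their values were seen.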

Additional observations from a re-analysis of the deposited data

Results flagged for a closer look

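*Lpl* differed in opposite directions between cells classed male and female in the 2 proximal tubule clusters PT s and PT f. The log2 ratio of the median level of male over female classes was 0.40 in PT s and -2.27 in PT f, and in both clusters every class of one sex lay on 1 side of every class of the other. The difference between the clusters was not tested, and 4 to 7 male cells per library stand behind the PT f value.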

How the results depend on the processing

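Of 176 values recomputed under an alternative, 158 stayed within the spread between libraries or within 1.5 times a count. Genes called in GL endo were 0, and became 1 with the run as a block in edgeR and in DESeq2, 11 with no filter on low counts and 0 to 6 when a library was left out, the 6 without WT mix. Leaving out a library gave log2 fold changes in GL endo of -1.25 to 0.76 for *Fabp4*, -2.01 to -0.018 for *Rbp7*, -0.98 to -0.080 for *Cd36*, -1.15 to -0.06 for *Gpihbp1*, -0.24 to 0.34 for *Lpl*, -0.20 to 0.02 for *Fabp5* and 0.37 to 1.20 for *Fabp3*. Without the top *Rbp7* cell of each library, *Fabp5* was at 0.18, or 0.19 with the block. At doublet scores of at most 0.2, *Fabp3* was at 0.22 and the median level of *Fabp5* in GL endo at 499.5 CPM against 440.5. In LOH, *Fabp4* was at 0.68, or 0.58 with the block, without its 3 top cells, and *Cd36* at 2.27 with at most 25% mitochondrial UMIs. Thinning lowered the median share of GL endo cells with a UMI to 25.3% for *Gpihbp1*, 8.9% for *Lpl*, 29.4% for *Fabp5* and 5.5% for *Fabp3*. The cause of these shifts was not tested, except that thinning lowers the depth of each cell. Libraries were matched by sequencing run only, as the block above, since the replicate numbers follow the order of the samples and mark no pairs. Depth limits the values of *Rbp7*, which rest on 31 to 274 UMIs per library in GL endo.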
